A study of Homo sapiens with 13 samples.

Results

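The genes described here are the human matrix metalloproteinases (MMPs), the membrane-bound ADAM proteases, their secreted ADAMTS relatives and the tissue inhibitors of metalloproteinases (TIMPs). They were chosen by symbol: protein-coding genes of GENCODE release 44 named MMP, ADAM, ADAMTS or TIMP and a number, with an optional letter. This gave 66 of 19894 genes: 23 MMP, 20 ADAM, 19 ADAMTS and 4 TIMP genes.

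The study mapped chromatin by ChIP-seq in MDA-MB-231 cells, an established human triple-negative breast cancer line of the basal B type, grown under standard conditions without any treatment or genetic change. There was 1 condition, and the groups are the antibodies: H3K4me1, H3K4me3, H3K27ac, RNA polymerase II (Pol II) and CTCF, with 2 libraries each, and p300/CBP, whose 1 library combined several immunoprecipitations. The processed data are 6 lists of peak positions on hg19, made after the replicates were merged and without any value for a peak. Depth per sample is therefore unknown, no error between replicates can be given, and a gene without a listed peak is one where the signal did not pass the authors' threshold, not one shown to lack the mark. Membership is given as counts beside the same share over all genes, with no test.

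MMPs are secreted or membrane-anchored zinc endopeptidases that cleave collagens, gelatin, laminins and other matrix proteins, and TIMPs block their active sites. ADAMs are membrane proteases that shed the outer parts of growth factor precursors, cytokines and adhesion molecules, and ADAMTSs process procollagens, proteoglycans and other secreted matrix proteins. Many MMP genes are known as targets of the transcription factor AP-1. H3K4me3 marks promoters, H3K4me1 marks enhancers and promoter borders, H3K27ac marks active elements of both kinds, p300 and CBP are acetyltransferases found at active enhancers, and CTCF is a DNA-binding protein of chromatin loop ends.

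The sequences shown come from p300/CBP peaks, since these mark the distal elements described further on, and are read from the plus strand of GRCh37 at the peak or its central 300 bases. Capitals mark the AP-1 letters TGAGTCA or TGACTCA, which are reverse complements of each other, so that a search for both covers both strands. The first is the single p300/CBP peak of the chromosome 11 cluster. The other 7 lay inside a candidate active enhancer (cAE). For each of the 18 other members with such a peak that were considered for printing, the one nearest to the transcription start site (TSS) of the Ensembl canonical transcript was taken, and the 7 at the shortest distance are shown. A match of letters is a description and not a bound site. A cAE is here any H3K4me1 region outside the 3 kb windows of protein-coding TSSs that H3K27ac overlapped by 1 bp or more. The listed end was read as lying 1 base past the peak.
MMP13 p300/CBP peak, chr11:102867051-102867251: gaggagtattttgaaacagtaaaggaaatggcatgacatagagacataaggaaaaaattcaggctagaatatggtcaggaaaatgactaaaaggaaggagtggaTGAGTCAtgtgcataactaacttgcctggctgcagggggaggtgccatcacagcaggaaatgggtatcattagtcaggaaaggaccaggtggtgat
ADAM8 p300/CBP peak, chr10:135106751-135107001: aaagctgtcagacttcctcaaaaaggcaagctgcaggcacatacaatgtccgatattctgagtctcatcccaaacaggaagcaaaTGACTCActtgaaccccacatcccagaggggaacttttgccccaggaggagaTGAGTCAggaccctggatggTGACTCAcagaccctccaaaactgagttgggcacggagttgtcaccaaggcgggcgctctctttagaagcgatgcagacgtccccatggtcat
ADAM12 p300/CBP peak, chr10:128086201-128086301: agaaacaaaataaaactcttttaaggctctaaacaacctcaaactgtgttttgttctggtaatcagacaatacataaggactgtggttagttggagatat
ADAM19 p300/CBP peak, chr5:157030426-157030726: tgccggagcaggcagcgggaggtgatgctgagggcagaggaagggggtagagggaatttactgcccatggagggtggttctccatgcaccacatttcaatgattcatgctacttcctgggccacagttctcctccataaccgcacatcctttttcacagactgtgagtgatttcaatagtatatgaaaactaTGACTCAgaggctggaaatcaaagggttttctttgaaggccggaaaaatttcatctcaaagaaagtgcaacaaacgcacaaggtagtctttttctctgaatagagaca
ADAMTS15 p300/CBP peak, chr11:130348101-130348301: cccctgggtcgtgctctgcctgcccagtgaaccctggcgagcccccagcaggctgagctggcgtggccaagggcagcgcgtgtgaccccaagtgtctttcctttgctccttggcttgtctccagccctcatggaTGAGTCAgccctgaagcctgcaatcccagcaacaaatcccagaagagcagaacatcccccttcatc
MMP2 p300/CBP peak, chr16:55533951-55534101: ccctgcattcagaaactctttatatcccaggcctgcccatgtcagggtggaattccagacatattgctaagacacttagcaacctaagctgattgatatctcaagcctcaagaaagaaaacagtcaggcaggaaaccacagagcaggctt
MMP24 p300/CBP peak, chr20:33803126-33803426: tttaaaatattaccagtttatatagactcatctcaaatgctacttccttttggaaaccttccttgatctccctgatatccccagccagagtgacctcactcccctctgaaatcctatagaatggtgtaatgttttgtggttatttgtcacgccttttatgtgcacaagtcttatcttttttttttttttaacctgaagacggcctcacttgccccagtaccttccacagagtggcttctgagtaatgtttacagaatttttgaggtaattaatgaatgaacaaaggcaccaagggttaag
TIMP4 p300/CBP peak, chr3:12219701-12219801: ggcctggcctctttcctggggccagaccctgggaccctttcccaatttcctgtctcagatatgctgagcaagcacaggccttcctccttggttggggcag

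The MMP13 peak lay 40.6 kb upstream of the MMP13 start site, outside canonical protein-coding transcripts, and held 1 copy of the letters. The ADAM8 peak, in intron 6 of the neighbouring TUBGCP2, held 3 copies. The ADAM19 peak, 27.6 kb upstream, and the ADAMTS15 peak, 29.6 kb downstream of the start site and past the gene end, held 1 copy each. The ADAM12 peak 9.15 kb upstream, the MMP24 peak upstream of its gene, the MMP2 peak in intron 11 of MMP2 and the TIMP4 peak in intron 13 of SYN2 held 0 copies.

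A smaller share of these genes carried the marks of an active promoter than of protein-coding genes as a whole. H3K27ac was listed in the 3 kb TSS window of 24 of the 66 genes (36.4%), against 61.4% of all genes. H3K4me3 was listed in 28 windows (42.4%, against 62.7%), Pol II in 19 (28.8%, against 58.4%) and H3K4me1 in 28 (42.4%, against 59.3%). CTCF was listed in 10 windows (15.2%, against 17.6%), a share near that of all genes. p300/CBP was listed in 0 windows, against 0.769% of all genes, a background at which few would carry it among 66. With a window of 1 kb the share with H3K4me1 was no longer lower, at 22.7% against 22.3% of all genes.

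The 6 lists were then read together at each start site. H3K4me3, H3K27ac and Pol II lay together in 17 windows (25.8%), against 56.2% of all genes. At least 1 of the 6 lists had a peak in 40 windows (60.6%), against 72.0% of all, and 26 had none. H3K4me1 without H3K4me3 or H3K27ac was found in 9 windows (13.6%, against 5.55%), namely those of MMP1, MMP3, MMP9, MMP10, MMP24, ADAM33, ADAMTS4, ADAMTS10 and ADAMTS16. H3K4me3 and H3K27ac without Pol II were found in 6 (9.09%, against 3.79%), those of TIMP4, MMP11, MMP15, MMP17, ADAMTS7 and ADAMTS15. H3K4me3 without H3K27ac was found in 5 (7.58%, against 2.68%), those of MMP25, MMP28, ADAMTS5, ADAMTS14 and ADAMTS17. These 5 combinations left 3 genes, ADAM12 with CTCF alone, ADAM32 with Pol II alone and ADAMTS12 with H3K27ac and H3K4me1.

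**Figure D1:**
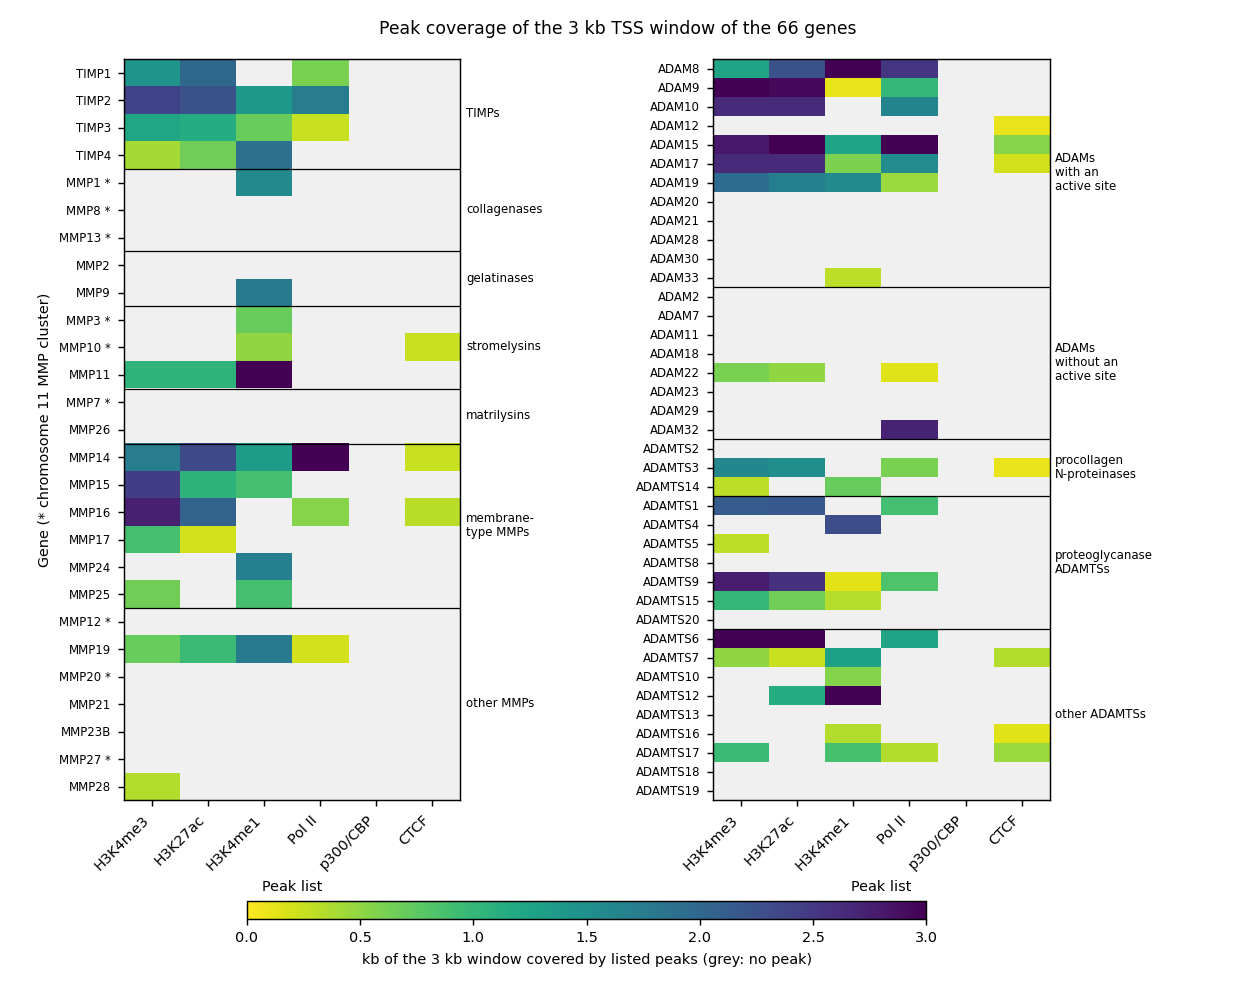
Coverage of the 3 kb TSS window of each of the 66 genes (rows, by role) by each of the 6 peak lists (columns), as kb covered from 0 to 3.0. H3K27ac is listed at 4 of 4 TIMPs, 4 of 6 membrane-type MMPs and 6 of 12 ADAMs with an active site, against 61.4% of all genes. In the chromosome 11 cluster (asterisks), 6 of the 9 genes have no peak of any list.

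**Figure D2:**
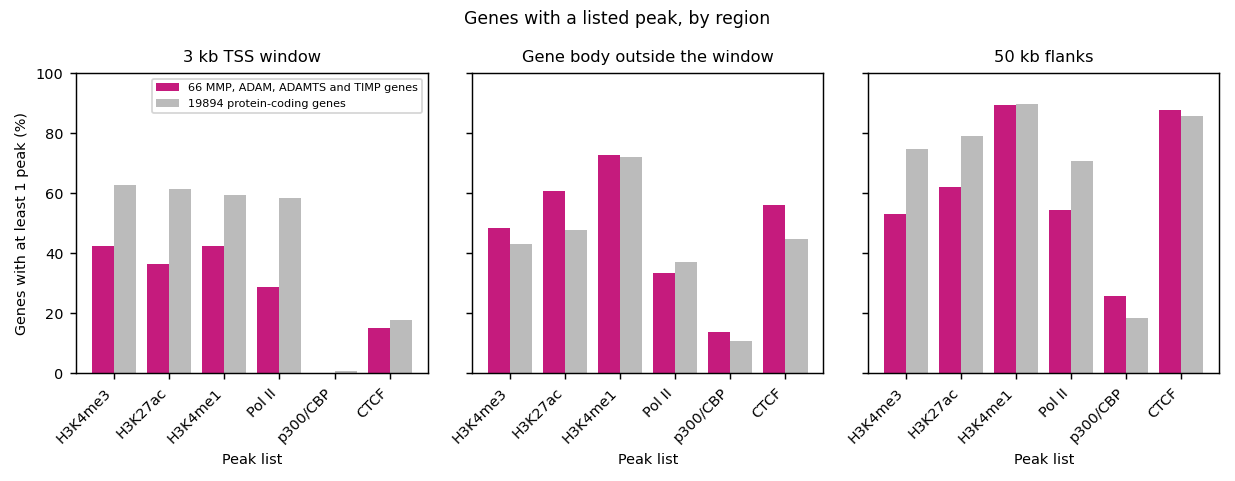
Share of genes with at least 1 listed peak (y axis, percent) for each list (x axis) in the TSS window, the gene body outside it and the 50 kb flanks, for the 66 genes and for all 19894. In the window the 66 genes are below all genes for the histone marks and Pol II, and in the body they are above for H3K27ac, at 60.6% against 47.7%.

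The TIMPs, which inhibit the proteases, stood at the marked end of the groups by role. H3K4me3 and H3K27ac were listed in the windows of 4 of 4, against 62.7% and 61.4% of all genes. Pol II and H3K4me1 were listed in 3 each, against 58.4% and 59.3%. With 4 genes, these counts do not set the TIMPs apart from all genes. At TIMP1, an inhibitor also known to stimulate cell growth, the H3K27ac region was 2000 bp wide, the H3K4me3 region 1450 bp and the Pol II region 600 bp, and H3K4me1 lay 2.88 kb away. TIMP2, which binds MMP14 and proMMP2 in a complex on the cell surface, had 2 H3K27ac regions of 1950 and 2000 bp on either side of the start site, and Pol II over the start site itself. At TIMP3, a matrix-bound inhibitor that also blocks ADAM17, H3K27ac covered 1800 bp from 0.360 kb downstream and Pol II covered 250 bp at the start site. TIMP4 had the smallest regions, 650 bp of H3K27ac and 400 bp of H3K4me3, and the nearest Pol II peak lay 129 kb from its TSS. TIMP1, TIMP3 and TIMP4 lie inside the synapsin genes SYN1, SYN3 and SYN2, so distal peaks around them also lie in those genes.

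The soluble MMPs that open collagen and gelatin were among the groups with no H3K27ac in any window, as were the matrilysins described below. Of the collagenases MMP1, MMP8 and MMP13, H3K27ac, H3K4me3 and Pol II were listed in 0 of 3 windows. For all genes the shares were 61.4%, 62.7% and 58.4%. MMP1, the interstitial collagenase, had a single H3K4me1 region of 1850 bp that ran from 1.76 kb upstream to 0.090 kb downstream of its start site. The nearest H3K27ac region was 177 kb away and the nearest Pol II region 293 kb. The gelatinases MMP2 and MMP9, which degrade gelatin and basement membrane collagen, also had 0 of 2 windows with H3K27ac. At MMP9 an H3K4me1 region covered the start site from 1.60 kb upstream to 0.253 kb downstream, and the nearest H3K27ac began 5.05 kb downstream. At MMP2 the nearest H3K27ac was 6.81 kb and the nearest Pol II 29.8 kb from the start site.

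Of the stromelysins, MMP3 and MMP10 had H3K4me1 over the start site without H3K27ac. MMP11, expressed in tumour stroma, had coinciding H3K4me3 and H3K27ac regions of 1050 bp within a long H3K4me1 region of 18200 bp, and its nearest Pol II peak lay 4.54 kb away. That H3K4me1 region touched 3 TSS windows, so it is not particular to MMP11. The matrilysins MMP7 and MMP26, which lack the hemopexin domain, had 0 of 2 windows with any list, against 72.0% of all genes. MMP26 lies apart from the cluster on chromosome 11 and is overlapped by 10 olfactory receptor genes, with the nearest H3K27ac 96.1 kb away.

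The membrane-type MMPs, which are anchored at the cell surface, had H3K4me3 in 5 of 6 windows, against 62.7% of all genes. H3K27ac was listed in 4 of 6, near the 61.4% of all genes. MMP14, the cell surface activator of proMMP2, had a Pol II region of 8100 bp from 4.84 kb upstream to 3.26 kb downstream, an H3K27ac region of 4100 bp and an H3K4me3 region of 3400 bp. It also had a CTCF peak that ended 0.094 kb before the start site. MMP16 had H3K4me3 over 2850 bp, H3K27ac over 2050 bp, and Pol II over 550 bp of the window. MMP15 had H3K4me3 over 2950 bp and H3K27ac over 1200 bp, and its nearest Pol II peak lay 3.06 kb away. MMP17, held by a lipid anchor, had an H3K4me3 region of 4300 bp from 0.613 to 4.91 kb downstream of the start site, mostly past the window. The H3K27ac in its window was a region of 200 bp, and an H3K27ac region of 3300 bp and a Pol II region of 2750 bp lay past the window over the same H3K4me3 region. MMP24 had H3K4me1 over 1700 bp and no other list, and MMP25 H3K4me3 over 650 bp and H3K4me1 without H3K27ac. MMP14 and MMP16 were the membrane-type genes with Pol II in the window, 2 of 6, against 58.4% of all genes.

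Among the 7 other MMPs, MMP19 carried H3K4me3 (700 bp), H3K27ac (950 bp), H3K4me1 (1750 bp) and Pol II (200 bp) over its start site. MMP28, or epilysin, had H3K4me3 over 350 bp alone. MMP12, MMP20, MMP21, MMP23B and MMP27 had no listed peak in the window.

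The chromosome 11 cluster is a row of 9 MMP genes, MMP7, MMP20, MMP27, MMP8, MMP10, MMP1, MMP3, MMP12 and MMP13, all on the minus strand. It spans chr11:102391239-102826461 (435 kb), and with 50 kb on either side (535 kb) holds 0 other protein-coding genes. Across these 535 kb there were 0 H3K4me3 peaks and 0 Pol II peaks, against 0.864 and 0.912 peaks per 100 kb of determined genome sequence. H3K27ac had 7 peaks (1.31 per 100 kb, against 1.44) that covered 1.07% of the stretch, against 2.48% of the genome. H3K4me1 had 21 peaks (3.92 per 100 kb, against 3.09) that covered 5.86%, against 5.87%. CTCF had 11 peaks (2.06 per 100 kb, against 1.39) and p300/CBP had 1 (0.187, against 0.489).

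Of the 7 H3K27ac regions, 3 lay between the first and the last gene of the row, within MMP20 or between it and MMP7. The others lay outside the row, and none lay between MMP13 and MMP20. Upstream of MMP13, at the outer end, there were 3 regions, of 250, 650 and 1850 bp, between 19.6 and 41.4 kb from its start site, and the cluster's p300/CBP peak lay within the cAE over the farthest of them. The widest region, 2200 bp, lay in intron 6 of MMP20, the enamel protease, 24.5 kb downstream of its start site. There were 2 of 250 and 200 bp upstream of MMP7 and 1 of 350 bp downstream of it. All 7 overlapped a cAE.

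Between MMP13 and MMP20 the marks were H3K4me1 and CTCF. H3K4me1 regions of 1850, 700 and 500 bp covered the start sites of MMP1, MMP3 and MMP10, and a CTCF peak of 250 bp covered that of MMP10. A further region of 3650 bp lay 16.9 kb downstream of the MMP10 start site and one of 2750 bp lay 5.31 kb upstream of MMP3, both without H3K27ac. MMP8, MMP12, MMP13, MMP20, MMP27 and MMP7 had no peak in the window. The flanks of neighbouring genes overlap here, so a peak between 2 of them was counted for both.

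**Figure D3:**
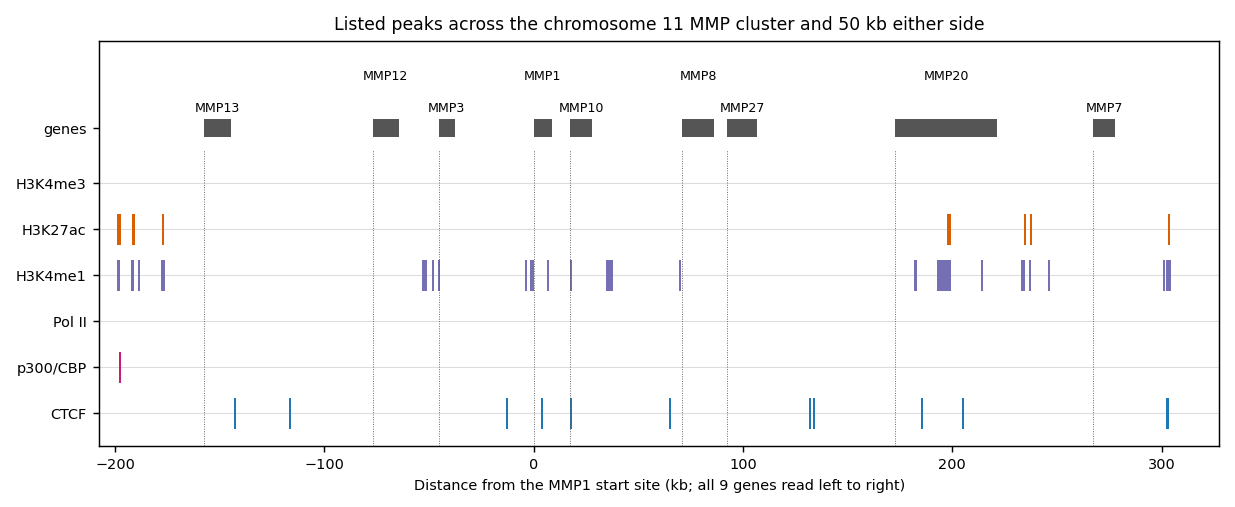
Listed peaks of the 6 lists (rows) across the chromosome 11 MMP cluster and 50 kb either side, by distance in kb from the MMP1 start site; grey boxes are the 9 genes, dotted lines their start sites, and peaks under 1 kb are drawn 1 kb wide. The H3K27ac peaks stand outside the genes' span or at its MMP7 and MMP20 end, and the rows for H3K4me3 and Pol II are empty.

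ADAMs were read by whether they keep the zinc-binding active site. Of 12 with an active site, 6 had H3K4me3, H3K27ac and Pol II together in the window (ADAM8, ADAM9, ADAM10, ADAM15, ADAM17 and ADAM19), and of 8 without it, 1 had (ADAM22). Of all genes, 56.2% had the 3 together, so 6 of 12 is near the background. ADAM17, which releases TNF and ligands of the EGF receptor, had H3K27ac over 3050 bp, H3K4me3 over 2650 bp and Pol II over 1550 bp. ADAM10, the main sheddase of Notch receptors and N-cadherin, had H3K27ac over 3450 bp, H3K4me3 over 3300 bp and Pol II over 1650 bp. At ADAM9 the H3K27ac region was 9750 bp wide, the widest at any of the 66 start sites, where the median of the 24 with one was 2000 bp. It touched 2 TSS windows, since TM2D2 starts within 3 kb of ADAM9, and the regions cannot be divided between these genes. ADAM8, a protease of leukocytes and of breast tumours, had 2 H3K27ac regions of 1400 and 2850 bp and a Pol II region of 3500 bp within 6750 bp of H3K4me1. ADAM15 had H3K27ac over 4600 bp, and Pol II over 2991 bp of the 3 kb window.

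Among the ADAMs with an active site, ADAM20, ADAM21, ADAM28 and ADAM30 had no listed peak in the window, and ADAM33 had H3K4me1 alone. Those without an active site include adhesion proteins of sperm and neurons. ADAM2, ADAM7, ADAM11, ADAM18, ADAM23 and ADAM29 had no peak in the window. ADAM22, a neuronal receptor for LGI1, had small regions, 600 bp of H3K4me3, 500 bp of H3K27ac and 150 bp of Pol II. ADAM32 had Pol II over 4550 bp without a histone mark, and it starts shortly past the end of ADAM9 on the same strand.

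Of the ADAMTS genes, 9 of 19 had H3K4me3, 7 had H3K27ac and 5 had Pol II in the window. For all genes the shares were 62.7%, 61.4% and 58.4%. Of the procollagen N-proteinases, ADAMTS3 had H3K4me3 (2000 bp), H3K27ac (1900 bp), Pol II (600 bp) and CTCF, ADAMTS14 had H3K4me3 over 300 bp with H3K4me1, and ADAMTS2 had no peak. Of the 7 proteoglycanases, which cut aggrecan and versican, ADAMTS1 and ADAMTS9 had H3K4me3, H3K27ac and Pol II, with H3K27ac regions of 3700 and 4050 bp. ADAMTS15 had H3K27ac over 650 bp without Pol II, ADAMTS4 had H3K4me1 and ADAMTS5, the main aggrecanase of mouse cartilage, had H3K4me3 over 300 bp alone. ADAMTS8 and ADAMTS20 had no peak.

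Of the 9 other ADAMTS genes, ADAMTS6 had H3K4me3 over 4000 bp, H3K27ac over 3550 bp and Pol II over 1250 bp. ADAMTS7 had H3K27ac over 250 bp. ADAMTS17 had H3K4me3, H3K4me1, Pol II and CTCF but no H3K27ac in the window, a combination found at 6 of all 19894 genes. An H3K27ac region lay 1.83 kb from the ADAMTS17 start site, shortly past the window, so this combination depends on the window edge. ADAMTS12 had H3K27ac over 3350 bp that ended 0.356 kb before the start site, inside 6550 bp of H3K4me1, and no H3K4me3 or Pol II in the window. ADAMTS10 had H3K4me1, ADAMTS16 H3K4me1 and CTCF, and ADAMTS13, ADAMTS18 and ADAMTS19 no peak.

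Away from the start sites the shares lay on either side of those of all genes. In gene bodies outside the window, H3K27ac was listed in 40 of the 66 (60.6%, against 47.7% of all genes), H3K4me3 in 32 (48.5%, against 43.0%), H3K4me1 in 48 (72.7%, against 72.1%), Pol II in 22 (33.3%, against 37.1%), p300/CBP in 9 (13.6%, against 10.6%) and CTCF in 37 (56.1%, against 44.7%). These genes were longer, with a median of 46.8 kb against 27.6 kb, which gives a peak more room, and the part of length in these shares was not tested. In the 50 kb flanks, H3K27ac was listed for 41 (62.1%, against 79.2%), H3K4me3 for 35 (53.0%, against 74.6%), Pol II for 36 (54.5%, against 70.8%), H3K4me1 for 59 (89.4%, against 89.6%), CTCF for 58 (87.9%, against 85.9%) and p300/CBP for 17 (25.8%, against 18.4%). Neighbouring genes carry many of the flank peaks, and flanks were shared by 6 pairs of members beside the cluster.

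A cAE lay in the body or flanks of 46 of the 66 genes (69.7%), against 69.0% of all genes, a share near the background. The median was 1 cAE per gene in both. Bodies and flanks of the 66 genes joined into 52 stretches of 12.1 Mb, which held 166 distinct cAEs (13.7 per Mb) and 66 distinct p300/CBP peaks (5.46 per Mb). Those of all protein-coding genes held 10.5 cAEs and 3.60 p300/CBP peaks per Mb. The p300/CBP peaks were uneven: ADAM12 had 10, MMP24 9, ADAMTS12 7, and TIMP4 and ADAMTS17 5 each. The pooled p300/CBP density thus rests in large part on a few loci and does not describe the members in general. Of the 166 cAEs, 41 (24.7%) held a p300/CBP peak, against 20.6% of all 24323 cAEs. Pol II was held by 39 (23.5%), against 5114 of all 24323, a share near the background. cAEs held 58 of the 66 p300/CBP peaks (87.9%), against 69.5% around all genes.

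In the body or 50 kb flanks, 23 of the 66 genes had at least 1 p300/CBP peak (34.8%, against 25.7% of all genes) and 5 had 5 or more (7.58%, against 2.28%). The greater length of these genes also gives more room here, and its part in these counts was not tested. ADAM12, a protease of breast carcinomas that is known to be induced by TGF-beta, had 10 p300/CBP peaks, although its TSS window held no histone mark. Its gene body, chr10:127700950-128077046, is 376 kb long, and 8 of the 10 lay in it, from 12.4 to 375 kb downstream of the start site, while 2 lay 9.15 and 9.61 kb upstream. ADAM12 had 11 cAEs, and 10 of 10 p300/CBP peaks were in them, yet the nearest Pol II peak to the start site was 32.5 kb away. The cAEs lay in introns 1, 3 and 14, in exon 23 and around the gene.

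ADAMTS12, a 368 kb gene, had 7 p300/CBP peaks, 6 of them in the body between 37.2 and 103 kb downstream of the start site. Its 9 cAEs all lay in intron 2, within 104 kb of the start site, and the cAE of 8300 bp there was covered by H3K27ac over 7050 bp. The rest of the body past these elements held no cAE. ADAMTS17, a 371 kb gene, had 5 p300/CBP peaks between 226 and 299 kb downstream, in a body with 7 cAEs, of which the widest, 7400 bp in intron 13, held 3 of the peaks.

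MMP24 had 9 p300/CBP peaks in its flanks and 0 in its body. Of these, 7 lay in a single cAE of 24150 bp, between 73.1 and 97.3 kb downstream of the start site, which was the widest cAE of any of the 66 genes. Its centre lay in intron 8 of UQCC1, past the end of MMP24, so its assignment to MMP24 rests on distance. TIMP4 had 5 p300/CBP peaks, from 19.3 to 35.6 kb upstream, in cAEs of 6500 and 8000 bp. The nearer of these had its centre in intron 13 of SYN2, and H3K27ac covered 6100 of its 6500 bp.

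**Figure D4:**
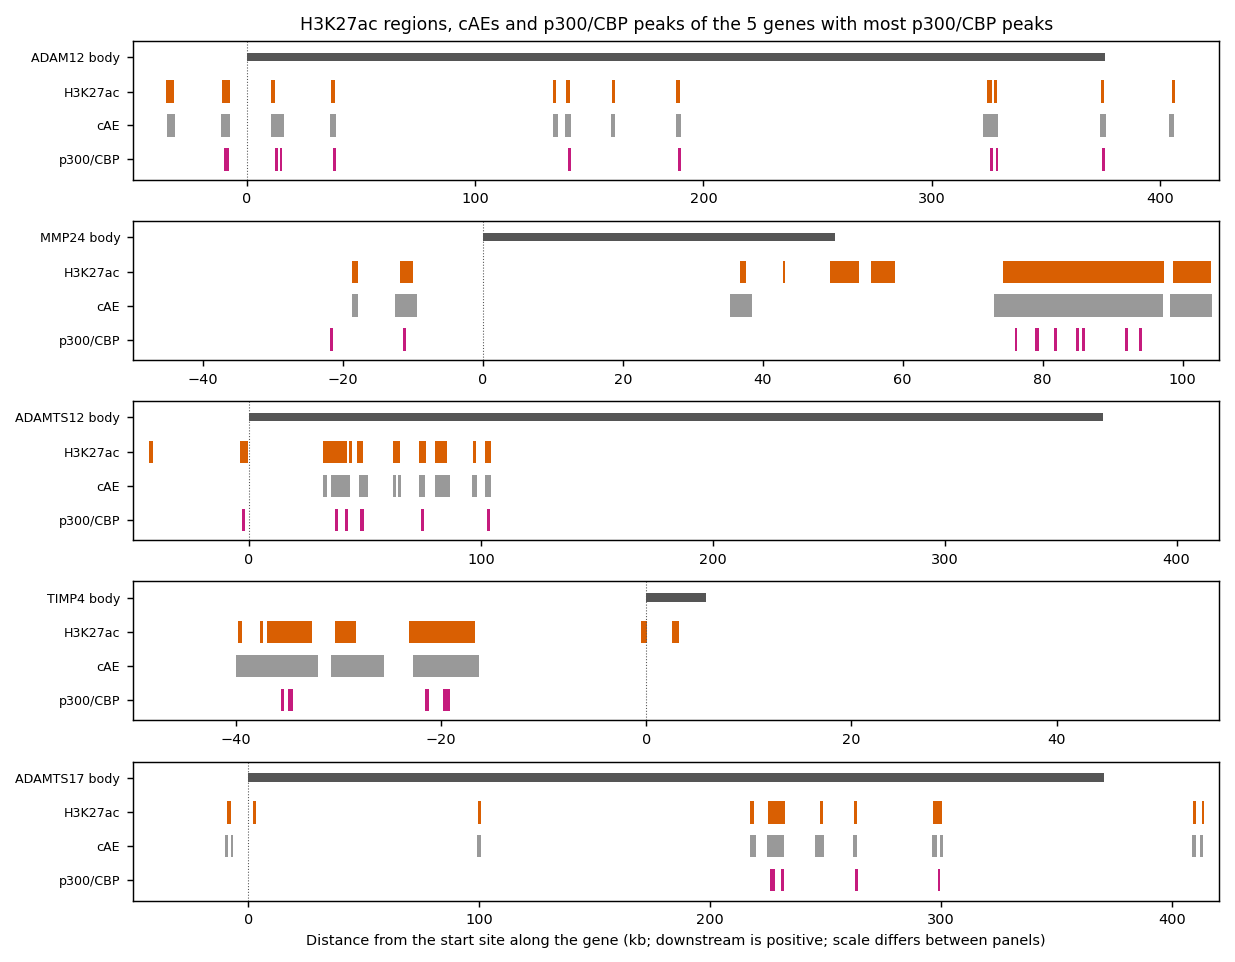
H3K27ac regions, cAEs and p300/CBP peaks (rows) around ADAM12, MMP24, ADAMTS12, TIMP4 and ADAMTS17, by distance in kb from the start site along the gene, with the gene body as a dark bar and a separate scale per panel. The peaks spread over the ADAM12 body, gather in the first 103 kb of ADAMTS12 and lie outside the bodies of MMP24 and TIMP4.

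Other genes had cAEs with few or 0 p300/CBP peaks. ADAM19 had 11 cAEs, 8 of them in its body, and 1 p300/CBP peak. MMP17 had 9 cAEs and 1 p300/CBP peak, ADAMTS16 had 9 and 2, and TIMP2 had 6 cAEs, 4 in its introns, and 0 p300/CBP peaks. MMP14 had 6 cAEs and 0 p300/CBP peaks, with the nearest p300/CBP peak 136 kb from its start site. MMP16 had 5 cAEs, all in intron 1, and 3 p300/CBP peaks. At the gelatinases, MMP2 had a cAE of 7800 bp in intron 11 with 1 p300/CBP peak. H3K27ac covered 450 of these 7800 bp, and the p300/CBP peak lay outside the covered part. MMP9 had a cAE of 3500 bp inside its own body, 2.95 kb downstream of the start site, with 2 CTCF peaks. H3K27ac covered 500 of these 3500 bp. Thus distal elements were listed at MMP2 and MMP9 although their windows held no H3K27ac.

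The AP-1 letters were searched in the 200 bp around the centre of each p300/CBP peak. They were present in 29 of the 66 peaks around these genes (43.9%), against 3422 of 13983 (24.5%) over the genome. Within cAEs they were present in 28 of 58 (48.3%), against 2668 of 7004 (38.1%). Overlapping flanks were counted once.

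The genes that act with these proteases were read from lists by role. H3K27ac was listed in the windows of 25 of 31 matched partner genes, against 61.4% of all genes. The lists were picked with earlier results of these data known, so this count describes them and shows no difference from all genes. Among the proprotein convertases that activate MMPs and ADAMs, FURIN, PCSK5 and PCSK7 had it and PCSK6 did not. Of the regulators that carry ADAM17 and ADAM10 to the surface, 8 of 9 had it, including RHBDF1, RHBDF2 and FRMD8, and the tetraspanin TSPAN33 did not. RECK, a membrane inhibitor of MMPs, and BSG, an inducer of them, had it, and the plasma inhibitor A2M did not. Of the EGF receptor ligands that ADAMs shed, HBEGF, EREG and TGFA had it, with 6850 bp at HBEGF, and AREG did not. ADAMTS-like genes had it at 4 of 6 matched, and the AP-1 genes FOSL1, FOSL2, JUN, JUNB and JUND at 5 of 5, with 18150 bp at FOSL1.

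The label of the cells was checked on the same windows. Basal B and mesenchymal markers (VIM, CD44, EGFR, AXL, CAV1 and FOSL1) had H3K4me3, H3K27ac and Pol II at 6 of 6. Of all genes, 56.2% had these 3 together, so each such marker alone says little about the cell type. FOSL1 is also in the AP-1 list above. Of the luminal markers, ESR1, GATA3 and CDH1 had none of the 3, PGR had H3K4me3 alone, and FOXA1 had all 3. The leukocyte genes PTPRC and CD3E had no listed peak.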

How the data were processed

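Peak positions were analysed for 6 antibodies in MDA-MB-231 cells. The authors aligned reads to hg19 (the paper names BWA-backtrack, the submitters' processing notes Bowtie2), binned the signal in 50-bp steps with PASHA, merged replicates and called peaks above a fixed signal (Integrated Genome Browser). The deposited lists hold positions without a value per peak. The p300/CBP list held 13984 peaks, many more than the paper reports. The Pol II and CTCF lists, with 26065 and 39596, held slightly more than it reports. Counts and shares for these lists are therefore not those of the paper. The threshold was 30 for H3K4me1 and H3K4me3, 50 for H3K27ac, Pol II and CTCF and 60 for p300/CBP. The names of the lists give scaling for all but CTCF and background subtraction for the histone marks and p300/CBP, so widths compare within a list only. The 2 input libraries were not analysed here.

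Genes, TSSs, exons and introns came from GENCODE release 44 on GRCh37, with 0 peaks starting beyond a chromosome end. An overlap of at least 1 bp with the 3 kb window on the canonical TSS, the body outside it or the 50 kb flanks counted. Overlaps were computed with Python 3.11.15 and tested on simulated data, and figures were drawn with matplotlib 3.10.9. The members and all gene lists were chosen with earlier results of these data known. Named were up to 4 genes per role with most lists in the window (ties by H3K27ac coverage), all TIMPs and cluster genes and the 5 with most p300/CBP peaks; others are named to account for every member or were singled out after their values were seen (ADAM10, ADAM19, ADAMTS5, ADAMTS16). Of the partner and marker genes, ADAMTSL6 and PECAM1 were not matched to the annotation. Alternatives changed the TSS set, window, flank, overlap rule and peak width. Sequences of members on chromosome 8 are not printed. The planned search of promoter sequence is not reported here.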

Additional observations from a re-analysis of the deposited data

How the results depend on the processing

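No paired analysis was possible because each list pools the libraries of its antibody. Leaving out a replicate or raising the threshold was likewise not possible, and a list cut to peaks of the median width or more stood in for the latter (wide peaks). Of 74 alternatives to 28 results, 61 stayed within 1.5 times the value given above or, for the AP-1 shares, within a 95% binomial interval. The other 13 did not. That interval takes p300/CBP peaks as independent, although several lie in the same cAE, so it serves only as a yardstick and not as an error. With wide peaks the windows with H3K4me3 numbered 17 (25.8%, against 55.0% of all genes), with Pol II 11 (16.7%, against 37.3%) and with CTCF 5. Wide peaks left 2 H3K27ac, 9 H3K4me1 and 7 CTCF peaks in the chromosome 11 cluster, and without flanks it held 3 H3K27ac and 0 p300/CBP peaks. By peak centre, H3K4me1 was in 18 windows and H3K4me3 in 19 bodies. In a 1 kb window H3K4me1 was in 15 and CTCF in 6. With 25 kb flanks p300/CBP was near 11 genes. Each of these uses fewer peaks, a smaller region or a stricter overlap. For H3K4me3, H3K27ac and Pol II in the TSS window, the share of these genes was lower than that of all genes in 12 of 12 alternatives. Over all lists and regions it changed sides in 5 of 60: H3K4me1 in a 1 kb window (22.7% against 22.3%), H3K4me3 in bodies with wide peaks (34.8% against 34.9%), H3K4me1 in 100 kb flanks (95.5% against 94.4%), and CTCF in 25 kb flanks (63.6% against 68.4%) and with wide peaks (72.7% against 75.2%). Dropping p300/CBP peaks under 5 Mb from each chromosome's main undetermined stretch, an alternative chosen after seeing the data, moved neither p300/CBP count by over 1.5 times.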
